A study of Mus musculus with 5 samples.

Results

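Protein synthesis needs initiation and elongation factors besides the ribosome. Initiation factors (eIFs) bring the initiator tRNA and the capped mRNA to the small ribosomal subunit, scan to the start codon and join the large subunit. Elongation factors (eEFs) then deliver aminoacyl-tRNAs and move the ribosome along the message. Haematopoietic stem cells (HSCs) are known for a low rate of protein synthesis that is held within narrow limits. Described here are the genes whose symbol is Eif or Eef followed by a digit, 56 of the 11643 genes in the expression table. The rule also takes in regulators that carry such a symbol, namely the eIF2alpha kinases, the eIF4E-binding proteins, the kinase of eEF2 and its methyltransferase. A further 16 symbols written on the role lists, some of them alternative names, were not matched in the table and are not analysed here. Among them are Eif2s1, Eif2ak2, Eif4b and Eif4g2.

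RNA came from HSCs of C57BL/6 mouse bone marrow. The sort kept cells with c-Kit, Sca-1 and CD150 on their surface that lacked CD48 and lineage markers. The 3 control libraries are tagged VavC in their titles and carry no further genotype in the labels. The 2 libraries labelled Tle1/3/4-deficient came from mice with floxed Tle1, Tle3 and Tle4 and Vav-Cre, which acts in all blood cells and not in HSCs alone. Whether the controls also carry Vav-Cre is not stated. TLE proteins repress transcription but need other factors to reach DNA. No age is given, and separate animals are not stated for the replicates. The p-values therefore reflect the spread between these libraries alone, which may be technical.

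Several properties of the libraries touch the results. Values are FPKM, fragments per kilobase of transcript scaled to the library, so levels of different genes can be compared per length. Total reads are unknown. From low values shared between libraries, 6 to 34 genes a pair, depth relative to control replicate 1 came to 1.10 to 1.46, so intervals for counting error are not given. Tle3, which the label gives as deleted, was higher where it should be lost, with 2.48 to 5.61 FPKM across controls and 32.3 and 31.6 FPKM in the libraries labelled deficient. Tle1 overlapped, with 0.811 to 3.33 FPKM against 2.84 and 4.37 FPKM. Tle4 had 5.67, 0.0129 and 5.29 FPKM in the controls against 0.353 and 0.203 FPKM, so that control replicate 2 was lowest. Directions below are therefore those of the labels. Of the 10570 genes averaging 1 FPKM or more, 15.9% lay below and 10.2% above every control in both libraries labelled deficient. These shares are the background for each marker count in this paragraph. Of 13 genes listed for the HSC gate and HSCs, 7 lay below and 2 above every control. The list holds Cd48, which the gate excludes, and Cd34 and Flt3, which are not particular to HSCs. The counts are therefore not a measure of HSC identity. Kit, a gate protein, was at 149 to 185 FPKM across controls, against 102 in both others, and Cd34 at 141 to 210.04 FPKM against 41.7 and 26.5 FPKM. Slamf1, which encodes CD150, lay above, at 31.8 and 31.03 FPKM against 14.9 to 24.0 FPKM, and Ly6a, which encodes Sca-1, was lowest in replicate 2 labelled deficient (14.05 FPKM against 57.8 to 199 FPKM elsewhere). Of 14 G2/M markers, 6 lay above and 1 below every control. The 14 granulocyte markers, genes of neutrophils and their precursors that the lineage gate should remove, summed to 580.2 to 3062 FPKM across controls, against 11251 and 68556 FPKM in replicates 1 and 2 labelled deficient. Of these 14, 11 exceeded all controls in both libraries labelled deficient, and Ctsg was under 0.3 FPKM in every library but replicate 2 labelled deficient. Of the 8 erythroid markers in the table, 4 lay above every control, with sums of 17.9 to 39.4 FPKM across controls, against 105.9 and 589 FPKM in the libraries labelled deficient. Of 10 megakaryocyte markers, 5 lay above and 1 below, with sums of 725 to 1466 FPKM against 8210 and 3726 FPKM. The part of these cell types and markers in the values below was not tested. In bulk RNA, fewer cells of a type and less RNA per cell cannot be told apart.

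No translation factor gene passed the test between the groups, and the family as a whole lay close to the middle of the table. Of the 56 genes, 55 averaged 1 FPKM or more and were tested with all other genes (limma on log2(FPKM + 1), Benjamini-Hochberg adjustment over 10570 genes, threshold 0.05). The background was 2 genes of 10570 past the threshold (0.0189%), 1 higher and 1 lower (0.00946% each), and 0 of 55 members were among them. At an unadjusted p under 0.05 there were 2 members, Eif2ak4 and Eif4a2, both lower in the libraries labelled deficient, beside 8.45% of all tested genes, 5.18% lower and 3.26% higher. The median log2 fold change of the members was -0.052, beside -0.10 for all tested genes. Negative values numbered 34 and positive values 21 of 55, or 61.8% negative, beside 55.7% of all tested genes. With median-of-ratios scaling, which moved the median of all tested genes to 0.015, the members' median was 0.074, so its sign depends on the scaling.

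**Figure D1:**
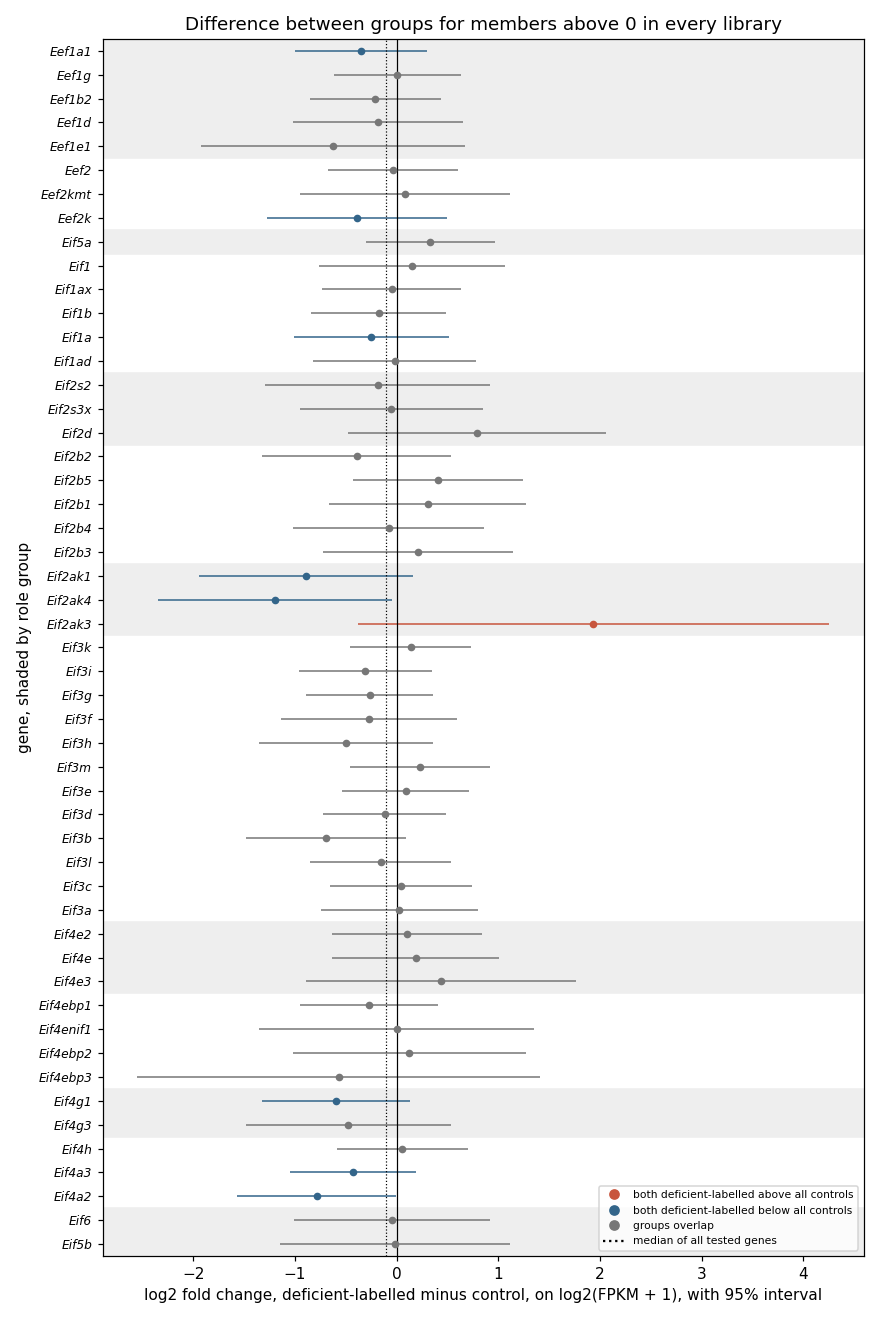
log2 fold change (labelled deficient minus control, on log2(FPKM + 1)) with its unadjusted 95% limma interval for the 51 tested members above 0 in every library, by role. The dotted line is the median of all tested genes. The intervals of all members shown but Eif2ak4 and Eif4a2 include 0.

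**Figure D2:**
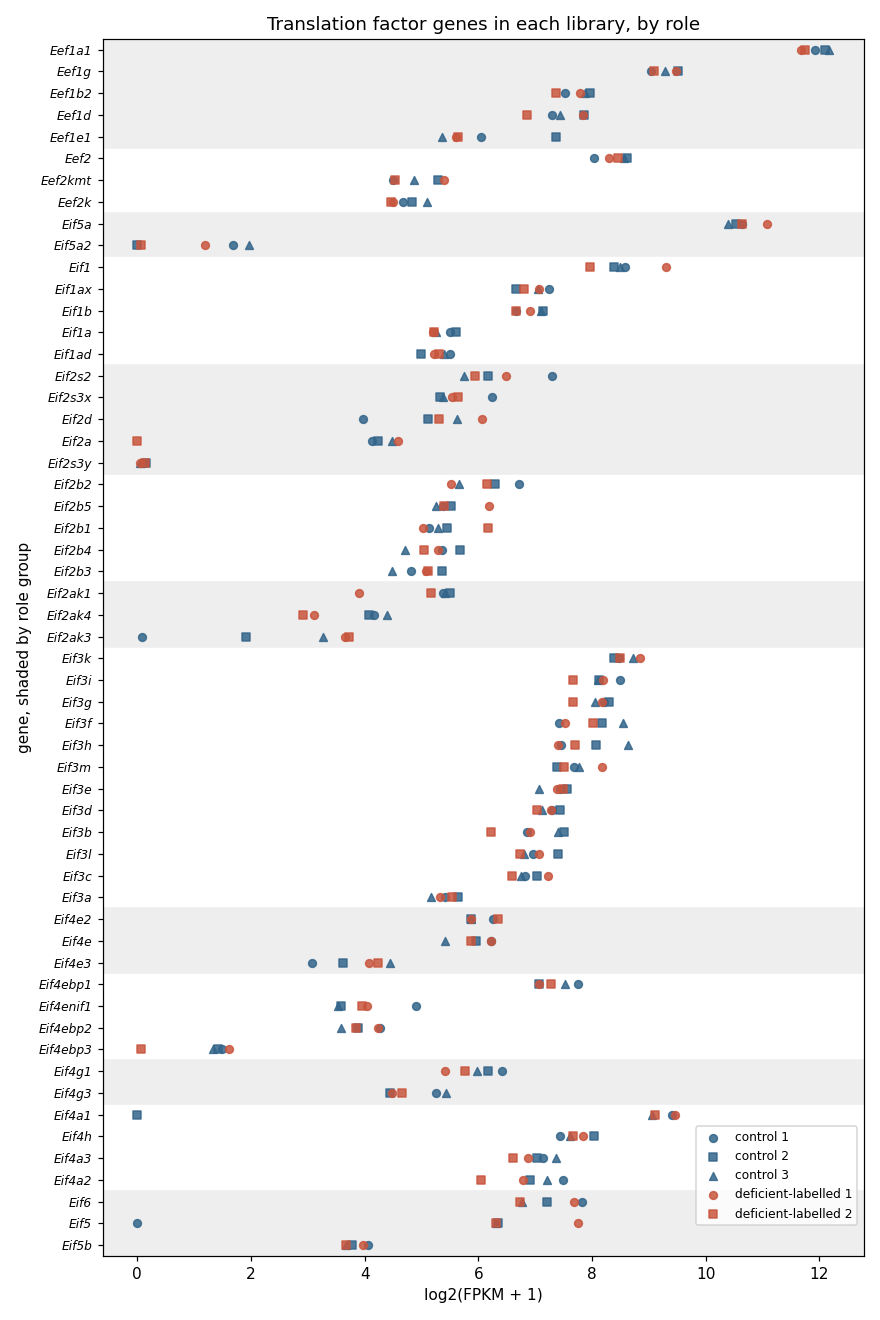
log2(FPKM + 1) of the 56 translation factor genes (rows, shaded by role) in the 3 control libraries (blue) and the 2 libraries labelled deficient (red). Eef1a1 and Eif5a stand highest, and single points at 0 mark Eif4a1 in control replicate 2, Eif5 in control replicate 1, Eif2a in replicate 2 labelled deficient and Eif5a2 in control replicate 2.

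The members covered a wide range of levels. Of the 56, 52 averaged 10 FPKM or more over the 5 libraries, 26 of at least 100 and 2 of at least 1000. Eef1a1 (mean 3910 FPKM, the 13th most abundant gene of the table) and Eif5a (1630 FPKM, the 51st) together made up 45.2% of the FPKM summed over the family, and the 10 most abundant members made up 70.1%. For the 49 members with a mean of at least 10 FPKM and no value of 0, the highest library exceeded the lowest by a median of 1.76 times. Over the 6323 genes of the table that met the same conditions it was 2.47 times. The least variable were Eif3d, at 1.31 times, and Eif5b, at 1.34 times. The most variable were Eif2d, at 4.50 times, and Eef1e1, at 4.12 times. For these 49 members the unadjusted 95% interval of the log2 fold change reached a median of 0.80 to either side. Smaller changes could not be told from none in a typical member, even before adjustment over all genes. The adjusted threshold asks for larger changes. Cd34, with a log2 fold change of -2.38 (SE 0.33), did not pass it (limma adjusted p = 0.208).

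Exact zeros stand apart, because a 0 beside high values in the other libraries can be a failed estimate. Eif4a1, the main helicase of cap-dependent initiation, was listed at 0 in control replicate 2, with 678 and 533 FPKM in the other controls, against 699.7 and 552 FPKM in the libraries labelled deficient. Eif5, the GTPase-activating protein of eIF2, was listed at 0 in control replicate 1, with 80.0 and 78.7 FPKM in the other controls, against 216 and 78.0 FPKM in replicates 1 and 2 labelled deficient. Leaving aside the 0, Eif5 as deposited thus stood apart in replicate 1 labelled deficient alone. With median-of-ratios scaling, both libraries labelled deficient lay above every control in Eif5. Eif2a, which encodes a protein that can bring initiator tRNA to the ribosome without eIF2, is listed at 0 in replicate 2 labelled deficient with 16.6 to 23.0 FPKM elsewhere. Eif5a2, a low paralogue of Eif5a, was listed at 0 in control replicate 2, with 2.21 and 2.90 FPKM in the other controls, against 1.29 and 0.0423 FPKM in the libraries labelled deficient. No fold change is given for these 4 genes.

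In 9 of the 55 tested members the groups did not overlap, 8 lower and 1 higher in the libraries labelled deficient. The background was 15.9% of all tested genes lower and 10.2% higher. The members' shares were 14.5% and 1.82%. With median-of-ratios scaling the counts were 4 lower and 4 higher, beside 12.5% and 13.6% of all tested genes. Eif2ak4, Eif4a2, Eif4a3 and Eif4g1 were lower under both that scaling and the deposited values, and Eif2ak3 was higher under both. Each count rests on few libraries. Without control replicates 1, 2 and 3 in turn, 14, 12 and 13 members were lower and 5, 4 and 4 higher, beside 23.0%, 23.4% and 22.5% of all tested genes lower and 15.5%, 14.9% and 15.1% higher. Without replicate 1 labelled deficient there were 21 lower and 3 higher, beside 33.5% and 21.6% of all tested genes. Without replicate 2 labelled deficient there were 13 lower and 14 higher, beside 28.8% and 26.7%.

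**Figure D3:**
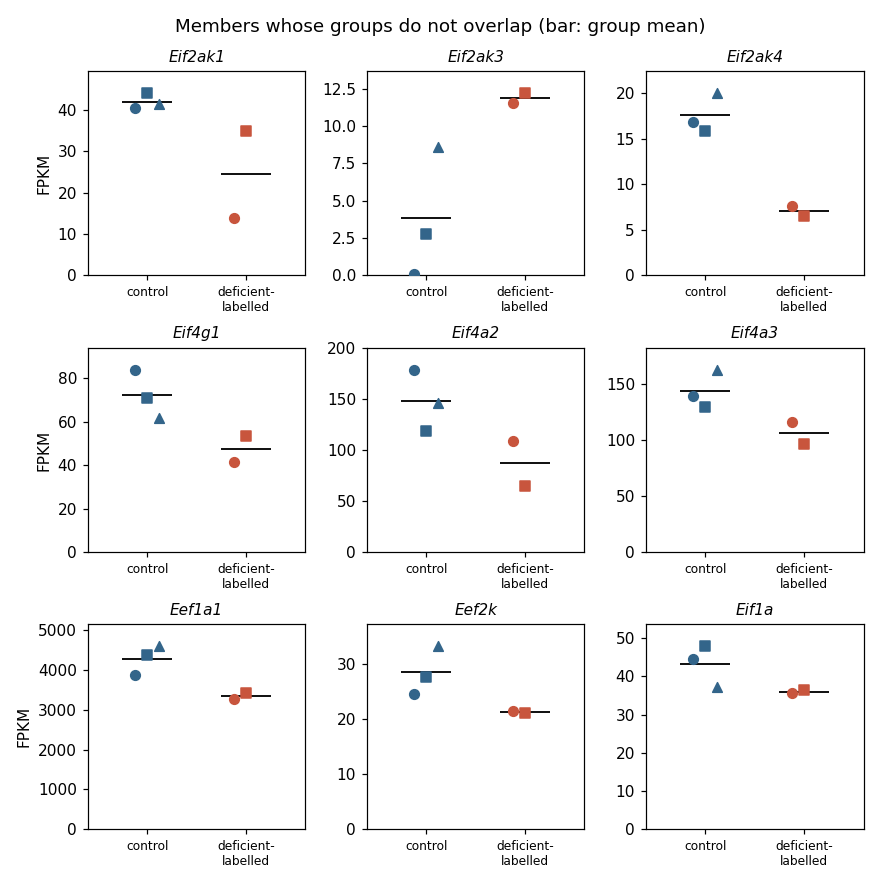
FPKM of the 9 members whose groups did not overlap, in each control library (blue) and each library labelled deficient (red), with a bar at the group mean (circle, square and triangle for replicates 1, 2 and 3). Eif2ak4 lies between 6.54 and 7.60 FPKM in the libraries labelled deficient and at 15.8 FPKM or more in the controls. For Eif1a, Eif4a2 and Eif4a3, among others, the gap between the groups is small beside the spread.

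The kinases that phosphorylate eIF2alpha held the largest log2 fold changes among members without a 0, in opposite directions. Each senses a different stress and slows initiation by making eIF2 a trap for its exchange factor. Eif2ak4 encodes GCN2, which senses uncharged tRNA when amino acids are short. It was at 16.8, 15.8 and 20.04 FPKM in control replicates 1 to 3 and at 7.60 and 6.54 FPKM in replicates 1 and 2 labelled deficient. Both libraries labelled deficient lay below every control, and the log2 fold change was -1.20 (SE 0.49, 95% interval -2.35 to -0.046, limma adjusted p = 0.573). Eif2ak1 encodes HRI, the haem-regulated kinase of red cell precursors. It was at 40.4, 44.1 and 41.5 FPKM across controls, against 13.9 and 35.0 FPKM in the libraries labelled deficient. The log2 fold change was -0.89 (SE 0.45, limma adjusted p = 0.636), and most of it came from replicate 1 labelled deficient, since the value was -0.26 without that library. Eif2ak3 encodes PERK, the kinase of the endoplasmic reticulum stress response, and lay the other way. It was at 0.0604, 2.76 and 8.60 FPKM across controls, against 11.5 and 12.2 FPKM in the libraries labelled deficient. The controls thus spread far more widely than the libraries labelled deficient, and the log2 fold change of 1.93 had an SE of 0.99 (limma adjusted p = 0.64). Eif2ak3 had a mean under 10 FPKM and is described because of its values. Among their neighbours in the annotation, exons of Eif2ak1 overlap those of Aimp2 and Ankrd61 on the opposite strand, and it is not given whether counting used strand. Exons of Eif2ak3 overlap those of Gm43292 on the opposite strand. Eif2ak1 and Eif2ak3 each share a near-identical stretch with 1 other annotated gene. Eif2ak4 has neither an overlapping gene nor a near-identical copy.

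The starts of the 8 genes whose groups did not overlap and that have a window in the table used are shown, so that their promoters can be compared with the values above. RefSeq windows of build GRCm38.p6 were available for 45 of the 56 members (the build differs from that of the FPKM table, so they serve for sequence only). Each line runs from 150 bases before the annotated start to 30 bases after it. For the 7 members with several annotated starts, only the first listed was used, here and in the counts below. Among those shown these are Eif2ak4, with 2 starts, and Eef2k, with 3. Capitals mark CACGTG, the E-box bound by MYC, USF and related factors, and CCGGAA or its complement TTCCGG, the core bound by ETS factors.
Eif2ak4 (chr2:118388467-118388646, plus strand): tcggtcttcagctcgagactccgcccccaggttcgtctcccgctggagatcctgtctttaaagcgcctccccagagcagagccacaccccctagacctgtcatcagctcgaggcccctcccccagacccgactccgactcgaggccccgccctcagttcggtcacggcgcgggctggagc
Eif2ak1 (chr5:143817642-143817821, plus strand): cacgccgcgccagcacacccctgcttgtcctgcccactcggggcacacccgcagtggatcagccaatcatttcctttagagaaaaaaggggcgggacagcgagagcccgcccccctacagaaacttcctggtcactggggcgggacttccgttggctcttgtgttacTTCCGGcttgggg
Eif2ak3 (chr6:70844365-70844544, plus strand): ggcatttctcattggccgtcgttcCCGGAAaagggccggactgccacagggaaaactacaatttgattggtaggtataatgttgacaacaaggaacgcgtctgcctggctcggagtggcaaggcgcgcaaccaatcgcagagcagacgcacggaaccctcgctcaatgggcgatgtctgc
Eif4a2 (chr16:23107318-23107497, plus strand): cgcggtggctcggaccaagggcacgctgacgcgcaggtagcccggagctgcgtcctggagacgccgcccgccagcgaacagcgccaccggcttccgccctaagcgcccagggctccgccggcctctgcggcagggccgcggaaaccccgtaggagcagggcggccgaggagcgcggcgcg
Eif4g1 (chr16:20672577-20672756, plus strand): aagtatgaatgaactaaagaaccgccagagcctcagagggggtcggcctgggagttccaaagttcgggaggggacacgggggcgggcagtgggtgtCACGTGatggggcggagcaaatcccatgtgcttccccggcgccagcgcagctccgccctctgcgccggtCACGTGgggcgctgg
Eef2k (chr7:120842681-120842860, plus strand): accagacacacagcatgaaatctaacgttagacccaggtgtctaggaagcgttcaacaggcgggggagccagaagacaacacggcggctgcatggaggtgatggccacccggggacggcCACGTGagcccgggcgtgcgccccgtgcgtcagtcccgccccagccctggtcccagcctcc
Eef1a1 (chr9:78481695-78481874, minus strand): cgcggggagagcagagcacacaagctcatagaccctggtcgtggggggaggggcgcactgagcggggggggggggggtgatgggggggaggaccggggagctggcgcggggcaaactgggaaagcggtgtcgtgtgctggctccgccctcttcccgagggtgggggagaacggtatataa
Eif4a3 (chr11:119300014-119300193, minus strand): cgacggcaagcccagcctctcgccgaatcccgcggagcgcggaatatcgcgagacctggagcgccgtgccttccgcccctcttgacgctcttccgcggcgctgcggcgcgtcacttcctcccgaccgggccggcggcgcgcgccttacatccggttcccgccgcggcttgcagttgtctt

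In the whole windows, from 250 bases before to 50 bases after the start, CACGTG was found in 10 of 45 members (22.2%), in 10.6% of 8158 tested genes and in 7.2% of all 27025 genes with a window. CCGGAA, on either strand, was found in 22 of 45 members (48.9%), in 30.3% of tested genes and in 15.2% of all genes. The mean GC content was 61.5% in the members' windows and 60.9% in those of tested genes. Of the 7 members that were lower without overlap and have a window, 2 held the E-box. They were Eif4g1, which holds it in 2 places, and Eef2k, which holds it in 1. A match is a description of these letters and not a measured binding site.

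Of the cap-binding complex, Eif4g1 and Eif4a2 lay below every control in both libraries labelled deficient. eIF4G is the scaffold that joins the cap-binding protein eIF4E, the helicase eIF4A and eIF3. Eif4g1 was at 84.0, 70.8 and 61.8 FPKM across controls, against 41.5 and 53.3 FPKM in the libraries labelled deficient, all below the controls. Its log2 fold change was -0.60 (SE 0.31, limma adjusted p = 0.641). Eif4g3, its paralogue, overlapped between the groups, at 37.0, 20.8 and 42.4 FPKM against 21.2 and 24.4 FPKM. The sum of both was 91.6 to 121 FPKM across controls, against 62.7 and 77.6 FPKM in the libraries labelled deficient. Eif4a2, a close paralogue of Eif4a1, was at 179, 119 and 146 FPKM across controls, against 109.5 and 64.7 FPKM in the libraries labelled deficient. Its log2 fold change was -0.79 (SE 0.34, 95% interval -1.57 to -0.007, limma adjusted p = 0.587). It was -0.41 without replicate 2 labelled deficient and -1.16 without replicate 1. Its exons overlap those of 7 other annotated genes, among them the small nucleolar RNAs Snora81 and Snord2 and, on the opposite strand, Rfc4. Eif4a1 exceeded Eif4a2 by 3.78 and 3.64 times in control replicates 1 and 3 and by 6.39 and 8.53 times in replicates 1 and 2 labelled deficient, the ratio in control replicate 2 having no value. Eif4a3, a helicase of the exon junction complex rather than of initiation, was at 139, 129.5 and 163 FPKM against 116 and 97.1 FPKM (log2 fold change -0.43, SE 0.27, limma adjusted p = 0.687). Eif4h, which stimulates eIF4A, lay within the range of the controls, at 228 and 202 FPKM against 173 to 260.2 FPKM.

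The cap-binding proteins and their inhibitors did not separate the groups. Eif4e, which binds the cap and is the target of the inhibitors, was at 73.4, 61.3 and 41.6 FPKM across controls, against 73.8 and 57.6 FPKM in the libraries labelled deficient. Eif4e2, a cap-binding protein linked to repression, was as abundant, at 57.6 to 75.9 FPKM across controls, against 57.6 and 80.0 FPKM (log2 fold change 0.10, SE 0.32, limma adjusted p = 0.946). Eif4e3 was the lowest of the 3, at 7.39 to 20.9 FPKM across controls, against 15.8 and 17.8 FPKM (log2 fold change 0.44, SE 0.57, limma adjusted p = 0.853). Of the eIF4E-binding proteins, which block eIF4G from eIF4E until mTORC1 phosphorylates them, Eif4ebp1 was the main one. It was at 214, 134 and 183 FPKM across controls, against 134 and 154 FPKM in the libraries labelled deficient (log2 fold change -0.27, SE 0.29, limma adjusted p = 0.817). In every library Eif4ebp1 exceeded Eif4e, by 1.81 to 4.41 times, with replicate 1 labelled deficient lowest. Eif4ebp2 was at 10.9 to 18.4 FPKM and Eif4ebp3 at 0.0512 to 2.04 FPKM over the 5 libraries. Eif4enif1, which carries eIF4E into the nucleus, was at 28.9 FPKM in control replicate 1 and at 10.5 to 15.4 FPKM elsewhere.

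The subunits of eIF3, the large complex that binds the small ribosomal subunit, overlapped between the groups in all 12 members tested as deposited. With quantile normalization Eif3d, Eif3g and Eif3i lay below every control. Their log2 fold changes ranged from -0.70 for Eif3b to 0.23 for Eif3m, with 7 negative and 5 positive. Their FPKM summed to 2277, 2535 and 2634 in controls and to 2439 and 2037 in the libraries labelled deficient. Eif3k was the most abundant subunit, at 354, 335 and 419 FPKM against 457 and 358 FPKM (log2 fold change 0.14, SE 0.26, limma adjusted p = 0.911). Eif3a, the largest subunit and part of the core, was the least abundant, at 35.0 to 48.7 FPKM over the 5 libraries. Eif3k exceeded Eif3a by 6.89 to 11.98 times. Eif3b, another core subunit, was at 115, 181 and 168 FPKM across controls, against 119 and 73.3 FPKM in the libraries labelled deficient (log2 fold change -0.70, SE 0.34, limma adjusted p = 0.622). Replicate 1 labelled deficient lay within the controls for Eif3b, and only replicate 2 lay below them. Without replicate 2 the log2 fold change was -0.35, and without replicate 1 it was -1.04. Eif3f and Eif3h, subunits with related domains, moved together across libraries. Eif3f was at 171, 287 and 373 FPKM across controls, against 184 and 259 FPKM, and Eif3h at 175, 266 and 394 FPKM and at 168 and 207 FPKM. Their highest library exceeded the lowest by 2.18 and 2.34 times. The ratio of Eif3h to Eif3f varied less, at 0.927 to 1.06 across controls, against 0.915 and 0.801 in the libraries labelled deficient.

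Factors that carry the initiator tRNA also overlapped between the groups as deposited. eIF2 binds the tRNA with GTP, and eIF2B recharges it after each round. Eif2s2, the beta subunit of eIF2, was at 155, 71.3 and 52.8 FPKM across controls, against 88.5 and 60.8 FPKM in the libraries labelled deficient (log2 fold change -0.19, SE 0.48, limma adjusted p = 0.937), the controls alone spanning that whole range. Eif2s3x, the X-linked gamma subunit, was at 74.8, 38.8 and 40.3 FPKM against 45.4 and 49.0 FPKM. Its Y-linked copy Eif2s3y was at 0.0284 to 0.113 FPKM over the 5 libraries and was the only member not tested. Eif2d, which can deliver tRNA in place of eIF2 and also acts in ribosome recycling, was at 14.6, 33.7 and 48.1 FPKM across controls, against 65.7 and 38.8 FPKM (log2 fold change 0.79, SE 0.54, limma adjusted p = 0.717). The value was 0.32 without control replicate 1 and 0.42 without replicate 1 labelled deficient. Of the 5 eIF2B subunits, 3 had positive and 2 negative log2 fold changes. Eif2b2 had the highest mean, at 104, 77.4 and 49.8 FPKM against 44.8 and 69.7 FPKM (log2 fold change -0.39, SE 0.40, limma adjusted p = 0.804). Eif2b5, the catalytic subunit, was at 40.5, 44.8 and 37.0 FPKM across controls, against 71.5 and 41.1 FPKM (log2 fold change 0.41, SE 0.36, limma adjusted p = 0.767). Eif2b1 showed the reverse split, at 31.7 and 70.7 FPKM beside 34.2 to 42.7 FPKM in controls. Without replicate 1 labelled deficient the log2 fold changes of Eif2b2 and Eif2b5 were -0.079 and 0.015. The libraries labelled deficient differed from each other more than their mean differed from the control mean in Eif2b1, Eif2b2, Eif2b4 and Eif2b5. With median-of-ratios scaling, both of these libraries lay above every control in Eif2b5.

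Of the scanning and subunit-joining factors, Eif1a alone had groups that did not overlap as deposited. With median-of-ratios scaling the groups of Eif1a overlapped. Eif1, which guards start codon choice, was at 382, 333 and 357 FPKM across controls, against 633 and 249 FPKM in replicates 1 and 2 labelled deficient, one above and one below every control. Its log2 fold change was 0.15 (SE 0.39, limma adjusted p = 0.937), and it was -0.52 without replicate 1 labelled deficient. Near-identical stretches of Eif1 occur in 13 other annotated genes, of which 12 are pseudogenes, so reads could be split among them. Its paralogue Eif1b was at 100.2 to 139 FPKM across controls, against 119 and 100.01 FPKM. Eif1a was at 44.6, 47.8 and 37.2 FPKM against 35.6 and 36.3 FPKM, below the controls by less than the spread among them (log2 fold change -0.25, SE 0.33, limma adjusted p = 0.854). Eif1ax, of the same family, was at 99.8 to 151 FPKM across controls, against 133 and 110.2 FPKM, and Eif1ad at 30.7 to 44.4 FPKM and at 36.4 and 38.8 FPKM. Eif5b, the GTPase that joins the subunits, was at 11.7 to 15.7 FPKM over the 5 libraries. Eif6, which keeps the large subunit from joining too early, was at 225, 146 and 107 FPKM across controls, against 205 and 106 FPKM (log2 fold change -0.049, SE 0.41, limma adjusted p = 0.981). Both groups of Eif6 thus covered nearly the same range.

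Among elongation factors, Eef1a1 was the member lower without overlap at the highest level. eEF1A brings aminoacyl-tRNA to the ribosome, and the eEF1B subunits recharge it with GTP. Eef1a1 was at 3874, 4373 and 4598 FPKM across controls, against 3283 and 3419 FPKM in the libraries labelled deficient (log2 fold change -0.35, SE 0.28, limma adjusted p = 0.74). With median-of-ratios scaling its groups overlapped. Near-identical stretches occur in 9 pseudogenes. The eEF1B genes overlapped between groups. Eef1g was at 526 to 725 FPKM across controls, against 710.1 and 545 FPKM, Eef1b2 at 183 to 247 FPKM and at 219.9 and 163 FPKM, and Eef1d at 156 to 229.7 FPKM and at 227 and 115 FPKM. The ratio of Eef1g to Eef1b2 was 2.66 to 2.93 across controls, against 3.23 and 3.34 in the libraries labelled deficient. Eef1a1 exceeded Eef1b2 by 14.9 to 21.1 times. Eef1e1, a scaffold protein of the tRNA synthetase complex, was at 164 FPKM in control replicate 2 and at 39.8 to 64.7 FPKM elsewhere (log2 fold change -0.63, SE 0.56, limma adjusted p = 0.769). Without that library its log2 fold change was -0.068.

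Of the translocase eEF2 and its modifiers, Eef2 and Eef2kmt overlapped between the groups. Eef2 was at 262, 391 and 377 FPKM across controls, against 313 and 349 FPKM in the libraries labelled deficient (log2 fold change -0.034, SE 0.28, 95% interval -0.68 to 0.61, limma adjusted p = 0.98). Eef2k, the kinase that inactivates eEF2, was at 24.6, 27.6 and 33.2 FPKM across controls, against 21.5 and 21.1 FPKM, below every control (log2 fold change -0.39, SE 0.38, limma adjusted p = 0.796). With median-of-ratios scaling the groups of Eef2k overlapped. Eef2kmt, which methylates eEF2, was at 21.5 to 38.1 FPKM across controls, against 41.0 and 22.2 FPKM. Eif5a, the hypusine-bearing factor that helps ribosomes past difficult peptide bonds, was at 1594, 1485 and 1335 FPKM across controls, against 2150.1 and 1585 FPKM. Its log2 fold change was 0.33 (SE 0.27, limma adjusted p = 0.753), with 0.11 if replicate 1 labelled deficient was left out and 0.55 if replicate 2 was. Replicate 2 lay just under the highest control as deposited, and with median-of-ratios scaling both libraries labelled deficient lay above every control.

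The family's share of all FPKM, a total that includes the granulocyte markers, was lower in both libraries labelled deficient than in any control. The difference was small and not seen in every role. Summed over the 56 genes, translation factors were 1.98%, 1.94% and 1.98% of all FPKM in controls and 1.88% and 1.81% in the libraries labelled deficient. Eef1a1, itself lower, alone held 31.9% of the family's FPKM, and the sum of control replicate 2 lacks Eif4a1, listed at 0 there. The eEF1A and eEF1B genes held 0.779%, 0.893% and 0.872% in controls against 0.656% and 0.716%. The roles of eIF3, eIF4G and the eIF2alpha kinases also lay below every control. That of eIF5A lay above, at 0.206% to 0.259% against 0.315% and 0.265%, and the other roles overlapped. Replicate 2 labelled deficient held the lowest value of 17 of the 55 tested members (30.9%, beside 25.6% of all tested genes) and the highest value of 3 (5.45%, beside 16.4%). In the same libraries, 71 cytosolic ribosomal protein genes made up 22.0% to 27.7% of all FPKM in controls and 22.9% and 15.3% in the libraries labelled deficient. The 14 granulocyte markers made up 0.0941% to 0.477% in controls and 1.65% and 11.4% in the libraries labelled deficient. FPKM is a relative unit, so genes that gain a share lower the values of the others in that library. The part of this in the values of single members was not tested beyond the scaling given above. The family's share was not computed without the granulocyte markers, so their part in its lower value was not tested either. Of the 9 genes in the table from a list of translation factors whose mRNAs begin with a terminal oligopyrimidine tract, a feature shared with ribosomal protein mRNAs, 7 had negative and 2 positive log2 fold changes. Their median was -0.18, beside -0.29 for the ribosomal protein genes, and 1 of the 9, Eef1a1, was lower without overlap (background 15.9%).

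**Figure D4:**
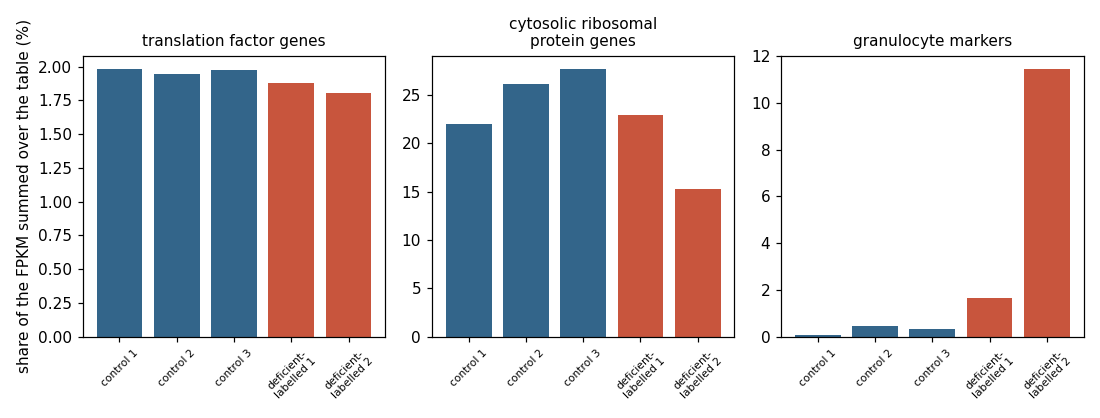
Share of the FPKM summed over the table (percent, bars from 0) held by the 56 translation factor genes, 71 cytosolic ribosomal protein genes and 14 granulocyte markers in each control library (blue) and library labelled deficient (red). The vertical scales differ. Translation factors lie between 1.81% and 1.98% throughout, and granulocyte markers reach 11.4% in replicate 2 labelled deficient.

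Apart from ribosomal protein genes, other genes of the pathway were read from lists, and 0 of their members passed the threshold (limma, background 0.0189%). At an unadjusted p under 0.05 there were 5 of the 59 tested, 4 higher and 1 lower. That is 8.47%, beside 8.45% of all tested genes. Among 14 kinases and regulators upstream of initiation, 2 were in that number and 4 were above every control (background 10.2%), with 1 below. Pdcd4, an inhibitor of eIF4A, was at 83.5, 105 and 59.1 FPKM across controls, against 253 and 183 FPKM in the libraries labelled deficient (log2 fold change 1.41, SE 0.33, limma adjusted p = 0.433). Rheb, the GTPase that switches on mTORC1, was at 42.5, 57.8 and 54.9 FPKM across controls, against 232 and 89.8 FPKM (limma adjusted p = 0.439). It was chosen, as were Etf1 and Asns, after its values were seen. Rps6, a ribosomal protein phosphorylated downstream of mTORC1, was at 3070, 1780 and 3664 FPKM against 2187 and 1188 FPKM (limma adjusted p = 0.663). Of 9 termination, recycling and rescue factors tested, 1 was above and 1 below every control, beside 10.2% and 15.9% of all tested genes. Etf1, the release factor that reads stop codons, was at 9.25, 20.5 and 18.6 FPKM across controls, against 40.03 and 38.2 FPKM (limma adjusted p = 0.51). Abcf1 and Abce1, the most abundant of that list, overlapped between groups, with log2 fold changes of -0.13 and 0.070.

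**Figure D5:**
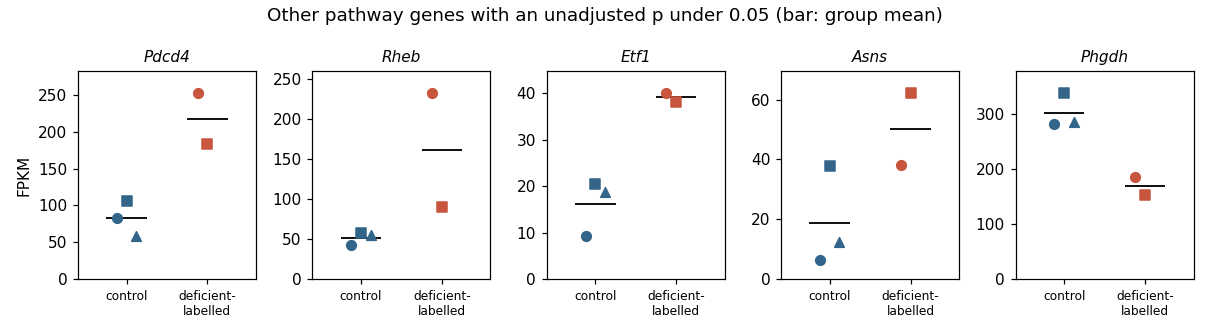
FPKM of the 5 other pathway genes with an unadjusted p under 0.05, in each control library (blue) and library labelled deficient (red), with a bar at the group mean (circle, square and triangle for replicates 1, 2 and 3). For Asns the gap between the highest control, 37.7 FPKM, and the lower library labelled deficient, 38.1 FPKM, is narrow.

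Targets of the integrated stress response, the programme that eIF2alpha phosphorylation switches on through the factor ATF4, lay more often above than below every control. Of 14 tested, 9 had positive and 5 negative log2 fold changes, with 5 above and 1 below every control, beside 10.2% and 15.9% of all tested genes. Their median was 0.32, beside -0.10 for all tested genes. Atf4 itself was at 53.4, 60.0 and 49.2 FPKM across controls, against 73.0 and 73.3 FPKM (limma adjusted p = 0.711). Ppp1r15b, Aars, Gars and Asns were the others above every control. Phgdh, the entry enzyme of serine synthesis, was at 282, 339 and 286 FPKM across controls, against 186 and 152 FPKM (log2 fold change -0.84, SE 0.25, limma adjusted p = 0.439). Asns, asparagine synthetase, was at 6.28, 37.7 and 12.3 FPKM across controls, against 38.1 and 62.2 FPKM (log2 fold change 1.68, SE 0.70, limma adjusted p = 0.584). Shmt2 overlapped, at 44.3 to 106 FPKM across controls, against 103 and 91.5 FPKM. Both directions thus occurred within the list.

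Enzymes that modify translation factors all had negative log2 fold changes, 8 of 8 tested, beside 55.7% of all tested genes. Their median was -0.50, beside -0.10 for all tested genes, but in none of them were the groups apart. They make the hypusine of eIF5A and the diphthamide of eEF2 or, as Eefsec does, deliver selenocysteine. The most abundant, Dohh, was at 45.4, 91.7 and 58.7 FPKM across controls, against 63.7 and 61.4 FPKM, with a log2 fold change of -0.001. Eefsec spanned 7.31 to 127 FPKM across controls, with 29.6 and 41.8 FPKM in the others. Dhps was listed at 0 in control replicate 3 and in replicate 1 labelled deficient, so its sign rests on these zeros. Without Dhps the median of the list was -0.46. Among 5 poly(A)-binding proteins and partners, Paip2, which withholds the poly(A)-binding protein from mRNA, was at 250.1, 274 and 269.9 FPKM across controls, against 193 and 175 FPKM (log2 fold change -0.52, SE 0.24, limma adjusted p = 0.607). Pabpc1 itself was at 124 to 152 FPKM across controls, against 140.0 and 119 FPKM. Of the 9 mitochondrial translation factors tested, 6 had negative and 3 positive log2 fold changes, and in 0 of them were the groups apart (unadjusted p under 0.05 in 0 of 9, limma). Tufm, the mitochondrial counterpart of eEF1A, was at 86.1 to 99.6 FPKM across controls, against 126 and 66.6 FPKM, and Tsfm was at 33.5 to 80.1 FPKM and at 32.1 and 57.5 FPKM.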

How the data were processed

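The authors deposited 1 table of FPKM per gene symbol for the 5 libraries. TopHat, edgeR and build mm9 appear, per the submitters' processing notes, without versions or roles. For the annotation, the FPKM tool and any filter, the entry is: not given in the sources used here. Because FPKM is divided by the library total, very abundant genes lower the others.

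Groups and replicate numbers came from the sample titles. The 10570 genes averaging 1 FPKM or more entered limma 3.58.1 (R 4.3.3) as log2(FPKM + 1) (eBayes with trend, group only, two-sided, Benjamini-Hochberg over all tested genes, threshold 0.05). Fold changes on this scale understate those of low genes. The fit was checked on simulated data. The members and lists were chosen with earlier results of these data known. Full statistics are given, by rule, for the most abundant member of each role, for that with the largest log2 fold change among members with a mean of at least 10 FPKM and no 0, and for up to 8 members a direction whose groups do not overlap. Eif4a1, named by that rule, is listed at 0 in 1 library and gets no fold change. Eef2kmt was placed beside eEF2 after the table was read. Copies were searched with BLAST 2.17.0 in GENCODE transcripts of a later build (at least 95% identity over 200 bases), and exon overlaps by symbol in the same annotation; 24 members had such a copy and 23 an overlap. The alternatives were the pseudocount, the filter, scaling, variance model, library weights, replicate number as a block, zeros and each library left out. Python 3.11.15, pandas 2.3.3 and matplotlib 3.10.9 were used. The lymphocyte marker list is not reported here.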

Additional observations from a re-analysis of the deposited data

How the results depend on the processing

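No translation factor gene passed under any of the 16 alternatives, and the lowest adjusted p of a member was 0.223, without replicate 1 labelled deficient, which leaves 1 library in that group whose spread is assumed to be that of the controls. Of the 22 members given full statistics and without a 0, 16 kept the sign of their log2 fold change under every alternative run, and the other 6 were Eef2, Eif1, Eif2s2, Eif3k, Eif4e2 and Eif6. The count of all genes past the threshold, 2, was 0 with a pseudocount of 0.1, without the filter or with array weights, 1 without trend, 4 with a pseudocount of 5, with median-of-ratios scaling or without genes at 0, and 5 with robust eBayes. It ranged from 0 to 5 with 1 library left out. With the replicate number as a block it was 22, and 0 members passed. The numbers do not pair the libraries by their labels, so the block has no known basis. In that fit control replicate 3 has no same-numbered partner and adds nothing to the fold changes. The deviations of same-numbered libraries correlated at 0.035 and 0.007 over genes. With 2 libraries in a group these deviations are mirror images, so the correlations cannot decide whether libraries were paired. Members lying higher without overlap numbered 4 in place of 1 with median-of-ratios scaling or quantile normalization, and 3 to 14 with 1 library left out (all tested genes: 10.2% as deposited, 13.6% and 12.2% under these scalings, 14.9% to 26.7% with a library left out). Members lying lower numbered 4 in place of 8 with median-of-ratios scaling, 9 with quantile normalization and 12 to 21 with 1 library left out (all tested genes: 15.9% as deposited, 12.5%, 14.2%, and 22.5% to 33.5%), where fewer libraries make separation easier. Beyond that, the cause of these shifts was not tested. The members' median ranged from -0.208 to 0.016 with 1 library left out, and was above 0 also with median-of-ratios scaling, at 0.074. The width of the intervals given comes from the spread between 3 and 2 libraries, drawn by eBayes towards that of genes of like level. Depth is unknown, and its part in that spread was not tested.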
